A study of Oryza sativa Japonica Group with 8 samples.

Results

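GW2, GW5, GS5, GL7 and qGL3 are rice genes named for natural variants that alter the width or length of the grain. They were followed here in the pistil, the female organ of the flower, in which stigma and style sit on top of the ovary. The 5 genes were chosen by locus identifier: Os02g0244100 on chromosome 2 (GW2), Os05g0187500 and Os05g0158500 on chromosome 5 (GW5 and GS5), Os07g0603300 on chromosome 7 (GL7) and Os03g0646900 on chromosome 3 (qGL3). All 5 were found among the 38726 features of the count table, and all 5 passed the filter on low counts in both comparisons. The table gives identifiers alone; the gene names came with the choice of genes, and chromosome numbers were read from the identifiers.

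Polyadenylated RNA was measured in 8 libraries from pistils of untreated wild-type Oryza sativa ssp. Japonica, cultivar Nipponbare, at the heading stage. Whole-cell RNA of the upper part of the pistil (n = 3) and of the lower part (n = 3) was sequenced after preparation with the directional NEBNext Ultra II kit. Nuclei sorted from pistils (n = 2) were sequenced with a SMART-Seq kit, so that the effect of kit cannot be told apart from that of compartment. The labels give neither the point at which the pistil was divided, nor the age of the plants in days, nor whether replicates came from separate plants, and p-values here may reflect technical spread alone.

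Rice grain size is set largely by the spikelet hull, which grows before fertilisation and encloses the pistil; the ovary then grows into the grain within it. GW2 is a RING-type ubiquitin ligase that restrains cell division in the hull. GW5 is a calmodulin-binding protein that inhibits a GSK3-like kinase of brassinosteroid signalling, and Nipponbare is known to carry a deletion upstream of it that lowers its expression in young panicles. GS5 is a putative serine carboxypeptidase that promotes grain width. GL7 is related to the LONGIFOLIA proteins and promotes longitudinal cell growth. qGL3 is a protein phosphatase with Kelch repeats that restrains grain length and acts on a GSK3-like kinase.

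Whole-cell libraries held 24796307 to 35518142 counts and nuclei libraries 9268151 to 10857036. A floor of 3 counts corresponded to 0.0760 to 0.136 CPM (counts per total count, scaled to a common library size) in a whole-cell library and to 0.269 and 0.371 CPM in the nuclei libraries. Summed over 5 loci listed as markers of carpel and ovule identity, levels were 1611 to 2412 CPM in the upper part, 1460 to 1887 CPM in the lower part and 1129 to 1754 CPM in nuclei, and all 5 loci averaged at least 1 CPM in each group. Taken singly, 1 of these 5 had every upper library above every lower one: Os03g0215200 (254 to 464 against 50.7 to 113 CPM). In 2 every upper library was below every lower one: Os12g0207000 (176.5 to 314 against 372 to 574 CPM) and Os01g0886200 (39.7 to 112 against 134 to 157 CPM). The other 2 overlapped. Over all tested genes these orders were seen in 9.93% and 10.6%. Summed levels of 6 loci listed for stamens and anthers were 271 to 718, 162 to 680 and 39.4 to 164 CPM in the same order. Most of that sum came from 1 locus, Os06g0712700, whose upper libraries averaged 482 ± 225 CPM and lower libraries 369 ± 273 CPM (n = 3, SD). It had 713, 263 and 471 CPM in upper replicates 1, 2 and 3. In lower replicates 1, 2 and 3 it had 271, 159 and 677 CPM. The other 5 loci averaged at most 5.50 CPM in any group. Os11g0582500 had no count in the lower part and Os01g0929600 none in nuclei. Summed levels of 4 loci listed for leaf photosynthesis were 179 to 446, 207 to 937 and 61.2 to 163 CPM, with none at 0. In each group the highest of these sums was that of replicate 2. The sums of both lists overlapped between the upper and lower parts, as did all 4 photosynthesis loci taken singly. Of the 6 stamen and anther loci, 3 at low levels had every upper library above every lower one, an order that 9.93% of all tested genes showed. They were Os02g0120500 (1.04 to 2.07 against 0.127 to 0.723 CPM), Os11g0582500 (0.316 to 1.23 against 0 CPM) and Os01g0929600 (0.814 to 3.65 against 0.0253 to 0.533 CPM). The part of these loci in the results was not tested. Lower replicate 3 stood apart: across genes, Spearman's rho averaged 0.919 against the upper libraries and 0.878 against the remaining lower ones. A lower level in bulk tissue can mean fewer cells of a type or less RNA per cell, and these cannot be told apart.

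**Figure D1:**
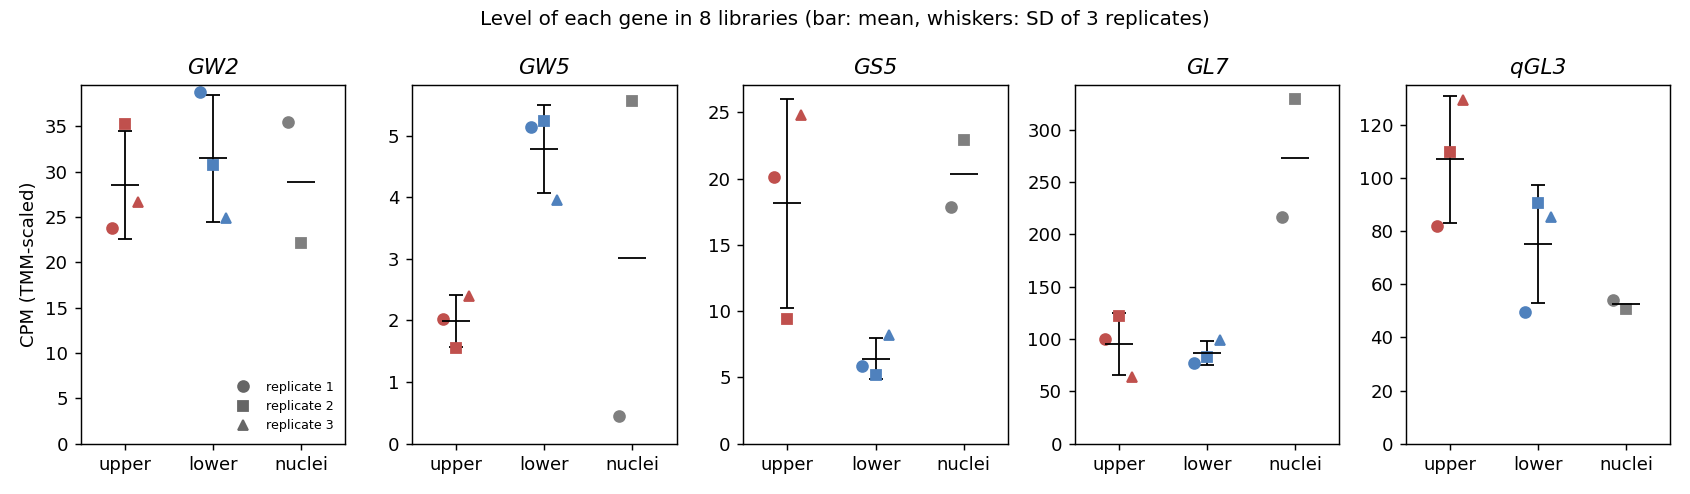
Level of each gene in CPM with TMM-scaled library sizes (vertical axes, linear from 0, 1 scale per gene) in the upper part, lower part and nuclei. Points are libraries, with marker shape for the replicate number; bars are means and whiskers the SD of the 3 replicates, with no whisker for the 2 nuclei libraries. GW5 in the upper part (1.56 to 2.40 CPM) lies below the lower part (3.96 to 5.24 CPM), GS5 in the upper part (9.43 to 24.8 CPM) lies above it (5.22 to 8.19 CPM), and GL7 in nuclei (216 and 329 CPM) lies above all whole-cell libraries.

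The first comparison asked whether the 5 genes differed along the pistil, upper part against lower part. Of the 5, GS5 had the largest fitted difference toward the upper part, 2.86-fold, and GW5 the largest toward the lower part, 2.36-fold, while the fitted values of GW2 and GL7 were under 1.2-fold. Without a block for the replicate number, edgeR's quasi-likelihood test called 0 of the 5 genes (adjusted p under 0.05 by Benjamini-Hochberg, and at least 1 on the log2 scale in either direction), against 0.814% of the 29848 genes tested. At an unadjusted p under 0.05 there were 2 of the 5, GS5 and GW5, against 13.9% of all genes tested. With the replicate number as a block, 1 of the 5 was called, GS5, against 8.14% of all genes. DESeq2 also called GS5, in a test that called 5.18% of its genes.

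Among the genes of grain width, GS5 reached 20.1, 9.43 and 24.8 CPM in upper replicates 1, 2 and 3. In lower replicates 1, 2 and 3 it had 5.83, 5.22 and 8.19 CPM. Every upper library was thus above every lower library, with upper replicate 2 the closest, an order that 9.93% of all tested genes showed in this direction. Upper libraries averaged 18.1 ± 7.88 CPM and lower libraries 6.41 ± 1.57 CPM (n = 3, SD). The fitted log2 fold change was 1.52 (95% interval 0.51 to 2.52, SE 0.43), with an adjusted p of 0.197 in edgeR. In the fit with the replicate block it was 1.44 (SE 0.26) and was called, with an adjusted p of 0.0344 in edgeR. DESeq2 gave a log2 fold change of 1.52 (SE 0.50) with an adjusted p of 0.0476. Without lower replicate 3, the library closer to the upper part, the value without the block was 1.73, with an adjusted p of 0.0959 in edgeR. The blocked call was lost without pair 2 or pair 3, at log2 fold changes of 1.70 and 1.29 and adjusted p-values of 0.0987 and 0.0739 in edgeR; over all alternatives the adjusted p ran from 0.0344 to 0.629.

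GW5 ran the opposite way at far fewer counts. It had 2.03, 1.56 and 2.40 CPM in upper replicates 1, 2 and 3, from 54, 52 and 53 counts. The lower libraries held 5.14, 5.24 and 3.96 CPM, from 158, 207 and 104 counts. The groups did not overlap, as for 10.6% of all tested genes in this direction, and the lowest lower library was replicate 3. Upper libraries averaged 1.99 ± 0.42 CPM and lower libraries 4.78 ± 0.71 CPM (n = 3, SD). The fitted log2 fold change was -1.24 (95% interval -2.18 to -0.30, SE 0.40), with an adjusted p in edgeR of 0.259 without the block and 0.0800 with it. None of the 15 alternatives brought GW5 past the threshold between the parts, and its log2 fold change stayed between -1.59 and -1.03.

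The ratio of GS5 to GW5 counts within a library does not depend on how libraries are scaled; since neither gene overlapped between the parts, and in opposite directions, this ratio had to differ between them. GS5 counts were 9.91, 6.06 and 10.4 times GW5 counts in upper replicates 1, 2 and 3. In lower replicates 1, 2 and 3 they were 1.13, 0.995 and 2.07 times GW5 counts, with lower replicate 3 the highest of its group. In nuclei the ratio was 39.8 and 4.11. These ratios are a description with no test, and they compare counts, not molecules per length, between the genes.

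GW2 had 23.8, 35.2 and 26.6 CPM in upper replicates 1, 2 and 3. Lower replicates 1, 2 and 3 had 38.7, 30.8 and 24.9 CPM. The parts overlapped, with the highest level in lower replicate 1 and the lowest in upper replicate 1. Its log2 fold change in the fit was -0.11 (95% interval -0.78 to 0.55, SE 0.29), with an adjusted p of 0.867 in edgeR. Without lower replicate 1 it was 0.04, so its sign depended on that library. The SD between replicates was 5.93 CPM for the upper and 6.96 CPM for the lower part (n = 3).

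Among the genes of grain length, qGL3 had 82.0, 110 and 129 CPM in upper replicates 1, 2 and 3, and lower replicates 1, 2 and 3 had 49.5, 90.6 and 85.3 CPM. The groups overlapped through upper replicate 1, although within each replicate number the upper library was higher. This gave a log2 fold change of 0.53 (95% interval -0.30 to 1.35, SE 0.35), with an adjusted p of 0.511 in edgeR. With the block it was 0.56 (95% interval 0.04 to 1.07, SE 0.21), with an adjusted p of 0.127 in edgeR, and again was not called.

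GL7 had 99.95, 122 and 63.5 CPM in upper replicates 1, 2 and 3. Lower replicates 1, 2 and 3 had 77.1, 82.7 and 99.5 CPM. The parts overlapped widely, upper replicates 2 and 3 being the highest and the lowest of the 6 libraries. In the fit, GL7 had a log2 fold change of 0.16 (95% interval -0.62 to 0.94, SE 0.34), with an adjusted p of 0.837 in edgeR. It was -0.06 without upper replicate 2. With library size as the only scaling it was -0.13, but that scaling shifted the median of all genes by -0.32. As the interval covered 0 and the sign depended on upper replicate 2, these libraries gave GL7 no direction.

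By replicate pair, 3 of the 5 genes went the same way in all 3 pairs, as 59% of all tested genes did. GS5 was 3.45, 1.81 and 3.03 times as high in the upper library as in the lower one of pairs 1, 2 and 3. GW5 was 2.53, 3.37 and 1.65 times as high in the lower library as in the upper one. The qGL3 ratios, upper to lower, were 1.65, 1.21 and 1.52. For GW2 the upper library was lower in pair 1 (ratio 0.615) and slightly higher in pairs 2 and 3 (1.14 and 1.07). For GL7 it was higher in pairs 1 and 2 (1.30 and 1.48) and lower in pair 3 (0.639).

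**Figure D2:**
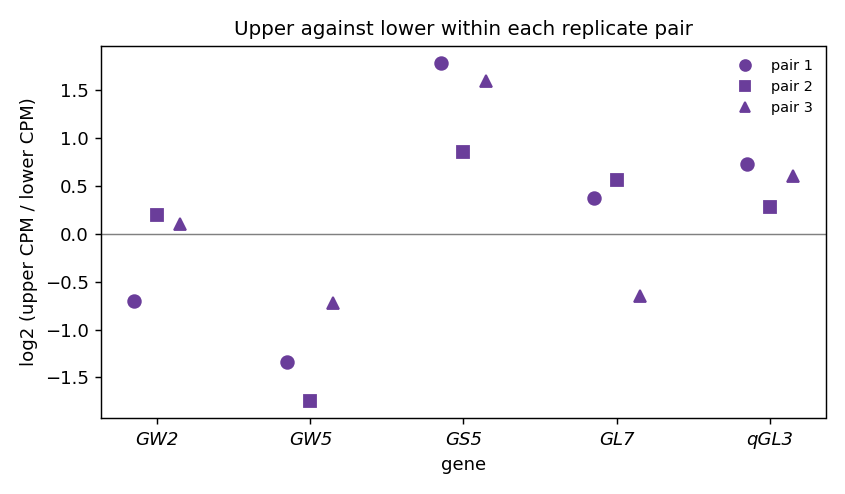
Difference between the upper and the lower library of the same replicate number, as log2 of the ratio of their CPM values (vertical axis), for each gene (horizontal axis); 1 point per pair, with marker shape for the pair. All 3 points are above 0 for GS5 and qGL3 and below 0 for GW5, and the points of GW2 and GL7 lie on both sides of 0.

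The second comparison took the nuclei against the average of both parts on the log2 scale. GL7 was called higher in nuclei, 3.07-fold, and no other of the 5 genes was called without the block. That is 1 of 5 genes, against 22.9% of the 31858 genes tested, so the share called was near the background. With the block GS5 was called as well, 2 of 5 against 29.8% of all genes. The genes differed in how far their nuclei libraries lay apart: those of qGL3 differed by 1.06 times, those of GL7 by 1.52 times, and those of GW5 by 12.4 times.

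GL7 had 216 and 329 CPM in nuclei replicates 1 and 2, from 2413 and 2664 counts. Both were above every whole-cell library, of which the highest was upper replicate 2 at 122 CPM; 17.2% of all tested genes showed this order. Against both parts, GL7 had a log2 fold change of 1.62 (95% interval 0.79 to 2.45, SE 0.37), with an adjusted p of 0.0145 in edgeR. It was called against the upper part alone at 1.55 (adjusted p = 0.0371 in edgeR, with 19.9% of genes called). It was also called against the lower part alone at 1.69 (adjusted p = 0.0327 in edgeR, with 15.5% of genes called). Without nuclei replicate 2 the call was lost, at a log2 fold change of 1.27 (adjusted p = 0.0689 in edgeR, and from 0.000413 to 0.0689 over all alternatives). GL7 levels were thus highest in nuclei, and the upper and lower parts did not differ beyond their spread.

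GS5 in nuclei lay among the upper libraries. Its levels were 17.8 and 22.9 CPM, above the 3 lower libraries and within the range of the upper ones. Nuclei above all lower libraries were seen in 23.4% of genes. Against the lower part GS5 was called higher, with a log2 fold change of 1.70 (SE 0.47) and an adjusted p of 0.0383 in edgeR. Against the upper part the value was 0.19 (95% interval -0.86 to 1.25), with an adjusted p of 0.790 in edgeR. Against both parts it was 0.95 (95% interval 0.04 to 1.85, SE 0.41), with an adjusted p of 0.116 in edgeR. The replicate block turned this into a call, at 1.25 (SE 0.34) and an adjusted p of 0.0302 in edgeR. That fit takes nuclei libraries as paired with the whole-cell libraries of the same number, which no label states. The lower part had the lowest mean of the 3 groups, and the order of nuclei and upper part was not resolved.

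qGL3 had 54.1 and 50.8 CPM in nuclei. Both values were below every upper library, an order seen in 27.9% of all genes, and lay just above lower replicate 1, the lowest whole-cell library. Against both parts, qGL3 had a log2 fold change of -0.74 (95% interval -1.60 to 0.11, SE 0.38), with an adjusted p of 0.181 in edgeR. Against the upper part it was -1.001 (95% interval -1.94 to -0.06) and against the lower part -0.49 (95% interval -1.41 to 0.44), with adjusted p-values of 0.117 and 0.436 in edgeR. Mean levels were 107 ± 23.9 CPM for the upper part, 75.1 ± 22.3 CPM for the lower part (n = 3, SD) and 52.5 ± 2.32 CPM for nuclei (n = 2, SD), with no step past the threshold.

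GW2 had 35.5 and 22.1 CPM in nuclei, the latter the lowest of all 8 libraries. The fitted log2 fold change against both parts was -0.03 (95% interval -0.78 to 0.73, SE 0.34), with an adjusted p of 0.963 in edgeR, and its sign changed with the scaling. The group means of GW2, 31.5 CPM in the lower part, 28.8 CPM in nuclei and 28.6 CPM in the upper part, lay within 1 SD of each other.

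For GW5 the nuclei libraries disagreed. Replicate 1 had 5 counts, or 0.448 CPM (exact Poisson 95% interval 0.145 to 1.05 CPM), and replicate 2 had 45 counts, or 5.57 CPM (4.06 to 7.45 CPM); the intervals cover counting error alone. The former was below all whole-cell libraries and the latter above them all. The fitted log2 fold change of -0.03 (95% interval -1.69 to 1.64), with an adjusted p of 0.983 in edgeR, averages these. Without nuclei replicate 2 it was -2.76 and GW5 was called lower (adjusted p = 0.0451 in edgeR, with 16.4% of genes called), and without nuclei replicate 1 it was 0.87.

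**Figure D3:**
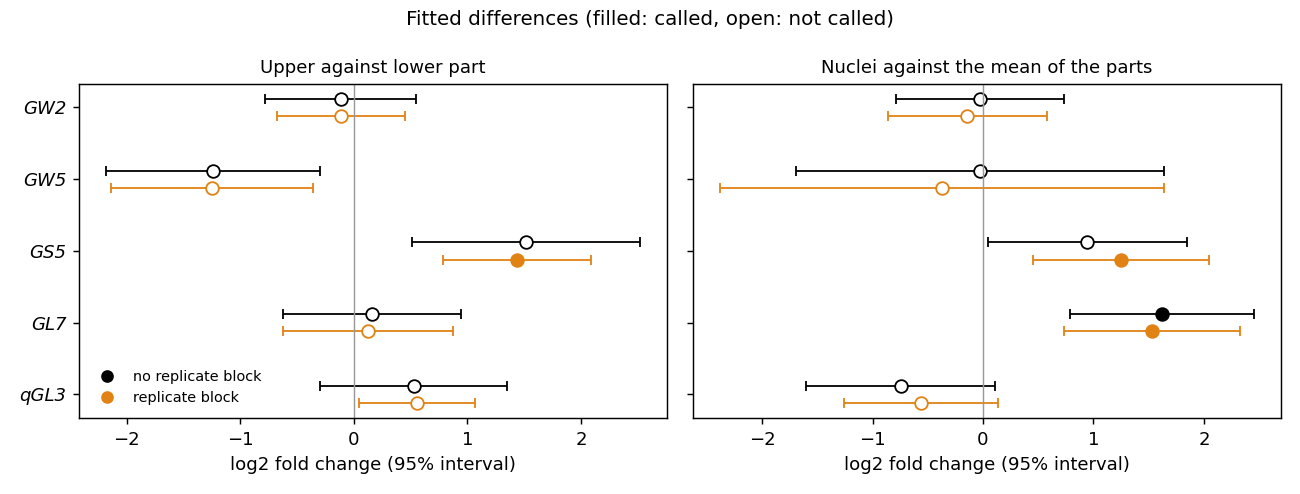
Fitted log2 fold changes with 95% intervals (horizontal axes) from edgeR for each gene (vertical axis), between the upper and lower parts on the left and between nuclei and the average of both parts on the right, without the replicate block (black) and with it (orange). Filled points were called and open points were not: GL7 was called in nuclei in both fits, and GS5 was called in both comparisons with the block alone.

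To set the 5 genes beside other genes of grain size, 31 further loci were listed by identifier from general knowledge of rice genetics, since the table does not pair identifiers with names. They were chosen with earlier results of these data known, so the shares called among them are a description. The list covers G protein and MAP kinase signalling, brassinosteroid genes, nuclear regulators, loci of small and round seed, and growth and filling. Of the 30 loci tested between the parts, edgeR called 1 higher in the upper part and 0 lower, which is 3.33% against 0.814% of all genes. Before adjustment, 5 were higher and 2 lower with p under 0.05, against 13.9% of all genes in either direction. The list's median log2 fold change was -0.04, against -0.02 over all genes. With the block 3 were called higher and 1 lower, which is 13.3% against 8.14% of all genes. DESeq2 gave the same numbers of calls, in a test that called 5.18% of its genes. The locus called without the block, Os07g0603700 on chromosome 7, had 32.0, 36.7 and 70.9 CPM in upper replicates 1, 2 and 3, and lower replicates 1, 2 and 3 had 0.260, 1.57 and 1.71 CPM. The groups were far apart, with a log2 fold change of 5.30 (SE 0.75) and an adjusted p of 0.0337 in edgeR. Of the 30 tested loci, 5 had a larger absolute log2 fold change between the parts than GS5 and 6 a larger one than GW5.

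Between nuclei and the parts, 8 of the 30 tested loci were called higher and 3 lower, which is 36.7% against 22.9% of all genes. The median log2 fold change was 0.03, against -0.03 over all genes. Setting 1 locus that had no count in nuclei to its bound could not move this median, as both values of that locus lie below it. Of 9 loci listed under brassinosteroid, 4 were called higher and no other had a positive log2 fold change, with a subgroup median of -0.28. Of 4 listed under G protein signalling 2 were called higher. The locus with the largest fold, Os09g0441900 on chromosome 9, had 90.9 and 68.9 CPM in nuclei, while upper libraries averaged 8.49 ± 7.26 CPM and lower libraries 1.08 ± 0.84 CPM (n = 3, SD). Both nuclei values were above all whole-cell libraries, with a log2 fold change of 4.74 (SE 0.65) and an adjusted p of 0.00135 in edgeR. Next in size among the called loci were Os01g0718300 (log2 fold change 2.04), Os01g0197100 (1.99), Os05g0139100 (-1.90), Os07g0505200 (1.84) and Os03g0407400 (1.73), with adjusted p-values from 0.00279 to 0.0214 in edgeR. In absolute log2 fold change 6 of the 29 tested loci with counts in nuclei exceeded GL7.

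**Figure D4:**
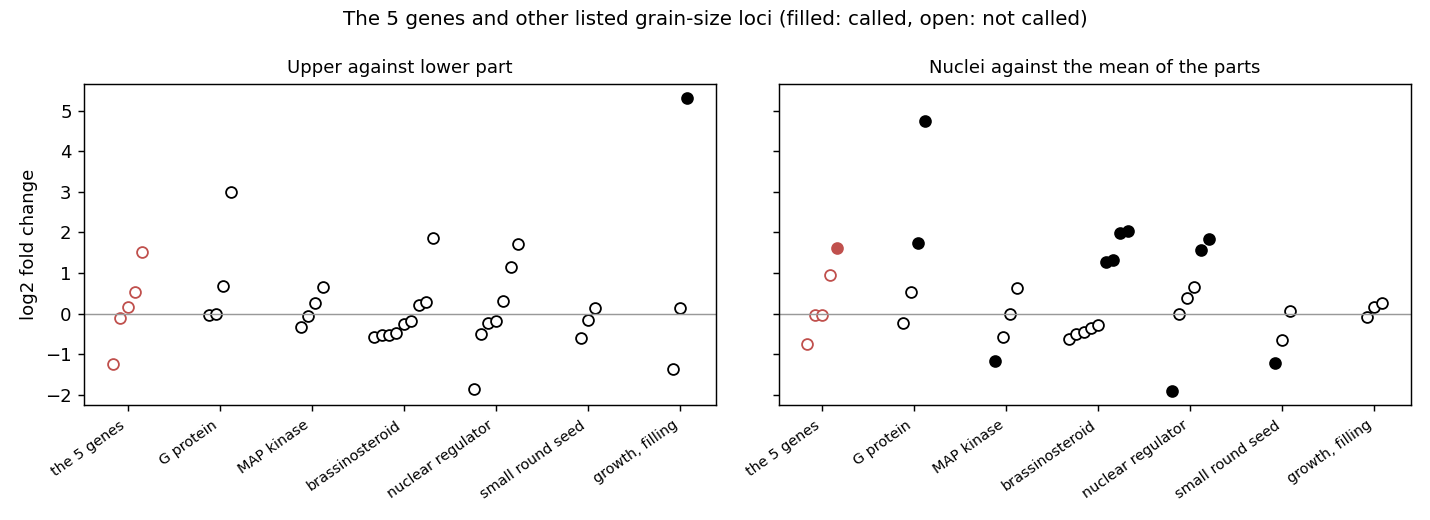
Log2 fold change (vertical axes) of the 5 genes (red) and of the other listed grain-size loci by subgroup (black, horizontal axes), between the parts on the left and between nuclei and the average of both parts on the right; filled points were called by edgeR without the replicate block. In the right panel the locus with no count in nuclei is left out. On the left 1 listed locus is filled, at 5.30, and on the right GL7 and 11 listed loci are filled.

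The loci whose pattern most resembled that of each gene were found by Pearson's r of log2(CPM + 1) over the 8 libraries. They came from 28155 loci with a mean of at least 1 CPM. Such r values compare neither the level nor the size of a change. These values describe 8 libraries that share their scaling, and the best of so many loci is high by construction. For GW2 they were Os10g0465000 (r = 0.975) and Os01g0807900 (r = 0.955). For GW5 they were Os06g0142200 (r = 0.970) and Os03g0186950 (r = 0.960), the former averaging 53.6 CPM in the upper part and 116 CPM in the lower part. For GS5 they were Os01g0908001 (r = 0.985) and Os03g0356526 (r = 0.982), the latter averaging 7.35 CPM in the upper part, 0.447 CPM in the lower part and 12.97 CPM in nuclei. For GL7 they were Os02g0704933 (r = 0.981), averaging 334 CPM in nuclei against 164 and 144 CPM in the upper and lower parts, and Os08g0119500 (r = 0.979). For qGL3 they were Os03g0575700 (r = 0.991) and Os04g0111250 (r = 0.989), which both averaged under 1 CPM in nuclei.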

How the data were processed

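The authors deposited a single table of unnormalized counts per feature and library. STAR, featureCounts, DESeq2 and the build IRGSP-1.0 are named, with no version, in the submitters' processing notes. The use of strand and the treatment of multiply mapping reads are not given in the sources used here, so a locus may include reads of overlapping, antisense or near-identical genes. Each of the 8 columns carries a sample's name, and 0 columns went unused. No genome or transcript lengths of that build were used, so levels were not ranked between genes and no sequence is shown.

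Counts were tested in R 4.3.3 with edgeR 4.0.16: quasi-likelihood test, TMM scaling, filter on low counts, and p-values adjusted by Benjamini-Hochberg over every gene in the fit. Genes were called at an adjusted p under 0.05 together with a log2 fold change of 1 or more in size. Upper and lower libraries were fitted alone, nuclei contrasts with all 8 libraries. Standard errors of the edgeR fits are the absolute log2 fold change over the root of the F statistic, and those of DESeq2 are its own. CPM values were scaled by TMM over all 8 libraries. The fits were also run on simulated counts, which were drawn with no replicate effect and so cannot bear on the replicate pairing. Alternatives were DESeq2 1.42.0, other scalings, no filter, a replicate block and leaving out each library.

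The labels number the replicates. Deviations from group means, correlated over 29848 genes, gave r from 0.373 to 0.694 for upper and lower libraries of one number and at most 0.0492 for unlike numbers, and the numbers were taken as pairs. Such deviations cancel out within a group, so a positive r for like numbers by itself lowers r for unlike ones. No label states a pairing. It was taken from these same counts, and the calls with the replicate block depend on it. For nuclei, the difference between replicates 1 and 2 correlated at 0.102 with that of the upper part and at 0.400 with that of the lower part. The blocked nuclei fits assume that nuclei share the numbering of the parts.

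Named were the 5 genes, the listed loci called in either comparison (the 6 with the largest change where more than 6 were called) and the 2 loci most like each gene in pattern. Genes, lists and marker loci were chosen with earlier results of these data known.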

Additional observations from a re-analysis of the deposited data

How the results depend on the processing

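Most values of the 5 genes kept their direction and their side of the threshold; those of GW2, GL7 and GW5 that were near 0 changed sign. Between the parts, GW2 had log2 fold changes from -0.30 to 0.037 (without lower replicate 1) with 1 library left out and 0.20 with the replicate block and pair 1 left out. GL7 between the parts had -0.13 with library size as the only scaling, which shifted the median of all genes by -0.32, from -0.064 (without upper replicate 2) to 0.39 with 1 library left out, and -0.13 in the blocked fit of pairs 1 and 3. GS5 between the parts was called with DESeq2 (1.52), in the blocked fit of all pairs (replicate block, 1.44) and in that of pairs 2 and 3 (1.28). With 1 library left out it ran from 1.23 to 1.82 and was never called. GW5 and qGL3 kept direction and side between the parts in all 15 alternatives, as did qGL3 in nuclei.

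In nuclei against the parts, GW2 had 0.0087 with DESeq2, 0.0091 with median-of-ratios size factors, 0.043 against the upper part alone, and from -0.41 to 0.26 with 1 library left out. GW5 had 0.0017 with DESeq2, 0.0016 with median-of-ratios size factors, 0.60 against the upper part alone, and from -2.76 to 0.87 with 1 library left out. GS5 was called with the replicate block (1.25) and against the lower part alone (1.70). GL7 ran from 1.27 to 1.89 with 1 library left out and lost its call only without nuclei replicate 2. The median of all genes shifted by more than 0.1 in this comparison with DESeq2 (0.17), with library size alone (-0.13) and without nuclei replicate 2 (-0.17). The cause of these changes was not tested, beyond the fewer samples where libraries were left out.

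The counts over all genes moved more. Between the parts, 242 genes were called higher and 1 lower, against 1296 and 397 with DESeq2, 1529 and 902 with the replicate block, and 0 to 916 and 0 to 42 with 1 library left out. The 0 in both directions came without lower replicate 1, where edgeR had 1589 genes higher and 842 genes lower with p under 0.05 before adjustment. The 0 lower also came without upper replicate 2, upper replicate 3 and lower replicate 2, with 1830, 693 and 1644 lower at an unadjusted p under 0.05. The calls lower were 3 with library size alone, 2 with no filter and 3 with all 8 libraries in the fit. In blocked fits without pair 1, 2 or 3 the calls higher numbered 2284, 98 and 2289 and the calls lower 1265, 0 and 644, the 0 beside 2603 with p under 0.05 before adjustment in edgeR. In nuclei against the parts, 4502 were called higher and 2791 lower, against 4306 lower with DESeq2, 4394 lower with the replicate block and 1719 lower against the lower part alone. With 1 library left out the range was 1970 to 4246 higher and 408 to 3191 lower, the lowest without nuclei replicate 1. At 5 to 207 counts per library, GW5 had the least precise levels of the 5 genes.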

Other observations

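Loci next to the 5 genes in the order of their identifiers, 2 on each side, were looked at after the data were seen. Of these 20 loci 18 passed the filter in each comparison. Between the parts edgeR and DESeq2 called 0 of the 18, against 0.814% and 5.18% of all genes they tested. At an unadjusted p under 0.05 there were 0, against 13.9% of all genes in edgeR. In nuclei against the parts 15 of the 18 had a negative log2 fold change, where the median of all genes was -0.03. Before adjustment 1 was higher and 7 were lower with p under 0.05 in edgeR, against 6635 and 5621 of the 31858 genes tested. DESeq2 called 1 higher and 3 lower, in a test that called 26.6% of its genes. The edgeR test called 2 of the 18, against 22.9% of all genes: Os05g0187800, after GW5, was higher in nuclei (45.1 and 54.7 CPM, while upper libraries averaged 17.0 ± 4.45 CPM and lower libraries 13.8 ± 6.01 CPM, n = 3, SD), and Os03g0646850, before qGL3, was lower (10.7 and 23.4 CPM, while upper libraries averaged 38.6 ± 8.47 CPM and lower libraries 46.8 ± 12.9 CPM, n = 3, SD).

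The pair of loci after GS5 showed lower replicate 3 apart from its group. For Os05g0158600, upper replicates 1, 2 and 3 had 114, 93.1 and 102 CPM, lower replicates 1 and 2 had 6.48 and 9.80 CPM, and lower replicate 3 had 199 CPM. For Os05g0158700 these values were 108, 80.99 and 94.1 CPM, 9.18 and 9.75 CPM, and 187 CPM. GS5 itself had 8.19 CPM in that library, against 5.83 and 5.22 CPM in lower replicates 1 and 2. The locus called higher in the upper part near GL7 by identifier, Os07g0603700, did not share this pattern, at 1.71 CPM in lower replicate 3.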
